A study of Homo sapiens with 18 samples.

Results

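Splice site choice with the MYCN transgene on was compared with that after its repression in SNRPD3-depleted SHEP.tet21n cells, a human neuroblastoma line whose MYCN cDNA transgene is switched off by doxycycline. The members of the comparison are the 12 of 18 RNA-seq libraries prepared from cells transfected with an siRNA against SNRPD3: 6 kept in DMSO vehicle, with the transgene on (MYCN+), and 6 given doxycycline at 2 µg/mL, with the transgene off (MYCN-). Each set of 6 held 3 replicates with siRNA #1 and 3 with siRNA #2, and the siRNA number was a block wherever both siRNAs were compared, except in 1 alternative. The remaining 6 libraries, from cells given a control siRNA (3 MYCN+/SNRPD3+ and 3 MYCN-/SNRPD3+), shared no library with these 12 and were used as a second reading of the same MYCN contrast. Whether same-numbered replicates of the 2 sets are independent was not tested. The design has no MYCN+ group given doxycycline and no MYCN- group given vehicle, so the loss of MYCN and any action of doxycycline cannot be told apart. The value measured was PSI, the percentage of reads within a cluster of introns sharing splice sites that supported a given intron. Of 233650 introns with a value, 152554 had a mean PSI between 1% and 99% over the 12 libraries and were fitted.

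Before translation, the spliceosome removes introns from a pre-mRNA, and a gene can yield different mRNAs through an alternative first exon, an alternative splice site or the inclusion or skipping of a cassette exon. SNRPD3 is a subunit of the heptameric Sm ring that surrounds the small nuclear RNAs of the spliceosome. MYCN is a transcription factor of the MYC family whose amplification marks high-risk neuroblastoma, and MYC proteins are known to raise the expression of splicing factors. A cassette exon whose length is a multiple of 3 nt can be skipped without moving the reading frame.

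The 12 libraries correlated with each other at a mean Pearson's r across introns of 0.847 to 0.861 per library. Read depth behind each PSI is unknown, because fractions without counts were deposited, and 20242 fitted introns (13.3%) held a value exactly repeated in several libraries. Replicate 3 of MYCN+/SNRPD3- cells stood apart with each siRNA in the share of skipped exons, so the counts below are also given without those 2 libraries. PSI carries no expression level: the repression of the transgene, which has no intron, and the knockdown were not analysed here. Introns were listed for 7 of 8 mesenchymal, 3 of 8 adrenergic and 2 of 5 epithelial, endothelial and other marker genes (EPCAM and PECAM1), and 0 of these introns were called by limma in this contrast. The labels number the replicates without saying what separates them, and the study calls them independent biological replicates.

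MYCN status changed the use of 335 introns (limma, Benjamini-Hochberg adjusted p below 0.05), which is 0.220% of those fitted, with 175 (0.115%) higher and 160 (0.105%) lower in MYCN+/SNRPD3- than in MYCN-/SNRPD3- cells. They lay in 247 of 14183 genes (1.74%) and 269 of 44405 clusters (0.606%). The median absolute difference was 6.64 percentage points of PSI (hereafter points), with quartiles of 3.51 and 12.5. In 326 of the 335 the MYCN+ and MYCN- libraries did not overlap, against 1984 of all introns (1.30%), which a call on the same libraries favours. All 335 moved in the same direction with each siRNA, which a fit over both siRNAs favours. A value repeated between libraries was present in 21 of them. Leaving out MYCN+ siRNA #2 replicate 3 gave 196 introns, and leaving out MYCN- siRNA #1 replicate 1 or 2, or MYCN- siRNA #2 replicate 1, 2 or 3, gave 183, 188, 217, 223 and 196. Without replicate 3 of both MYCN+ groups 229 introns were called, 86 higher and 143 lower, of which 117 were among the 335. The higher share thereby moved from 52.2% to 37.6%.

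The control siRNA libraries moved the same way. There, 307 of the 335 introns (91.6%) had the same sign of difference, against 57.9% of all introns fitted, and 205 (61.2%, against 4.20%) also had an unadjusted p below 0.05. The control libraries on their own called 545 introns (0.357%), of which 5 were among the 335. The median ratio of the difference with control siRNA to that in SNRPD3- cells was 0.752. These introns were selected on their difference in SNRPD3- cells, which favours a smaller one with control siRNA. The MYCN effect itself differed between SNRPD3- and SNRPD3+ cells for 11 introns (0.00721%, limma contrast over all 18 libraries, with 5918 at an unadjusted p below 0.05), and for 0 of 16570 cassette exons (0%, limma, with 702 at an unadjusted p below 0.05). Some of the 11 introns moved almost only with 1 siRNA, as described further below. A difference that misses this test is not shown to be equal in both settings.

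Alternative first exons and cassette exons recurred among the changes. First introns were 65 of the 243 called introns found in the annotation (26.7%), against 19.9% of the annotated introns tested. Clusters with alternative first introns were 41 of the 269 clusters with a call (15.2%), against 3693 of 44405 (8.32%), and clusters with a cassette exon were 116 (43.1%), against 24.9%. These shares describe the called set, which has no test of its own.

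PDK2 encodes pyruvate dehydrogenase kinase 2, which phosphorylates and inhibits the pyruvate dehydrogenase complex. The PSI of its first intron (chr17:50095554-50097422, plus strand, hg38) was 89.9, 94.8 and 97.9% (lowest, median and highest of 6 libraries) in MYCN+/SNRPD3- cells and 57.5, 64.3 and 74.3% in MYCN-/SNRPD3- cells. No MYCN- library reached the lowest MYCN+ library, a condition set for all introns with the largest changes. The means were 94.1% ± 2.92 (SD, n = 6) and 65.0% ± 6.63, a rise of 29.1 points with MYCN, or 3.01 ± 0.28 (SE) in log2 odds (limma, adjusted p = 0.00258), beside 36.1 points with control siRNA. An unannotated upstream intron of the same cluster (chr17:50093580-50094341) went the other way, from 19.8% in MYCN- to 4.22% in MYCN+ cells (limma, adjusted p = 0.00653).

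SLC4A2, a plasma membrane chloride-bicarbonate exchanger, switched between alternative first introns that join the same acceptor. The downstream one (chr7:151061522-151061924, plus strand) stood at 47.6, 51.6 and 65.3% in MYCN+ and 21.4, 27.2 and 31.1% in MYCN- cells, without overlap, a rise of 26.5 points (limma, adjusted p = 0.00653) that measured 12.9 points with control siRNA. The upstream first intron (chr7:151059763-151061924) fell from 60.9% to 38.4% and was also called. In DUSP14, a dual specificity phosphatase gene, the upstream of a pair of first introns (chr17:37489959-37510676, plus strand) rose from 49.1, 53.3 and 69.3% in MYCN- to 78.0, 80.9 and 89.0% in MYCN+ cells (25.8 points, limma adjusted p = 0.0331, beside 22.9 points with control siRNA).

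In other genes the intron from the upstream start site was used less with MYCN. EPB41 encodes protein 4.1, which ties spectrin and actin to the plasma membrane. Its upstream first intron (chr1:28887211-28987447, plus strand) stood at 29.5, 39.4 and 52.6% in MYCN+ and 57.0, 70.4 and 73.9% in MYCN- cells, a fall of 28.5 points without overlap (-28.5, limma adjusted p = 0.0376), and the annotated downstream alternative (chr1:28914769-28987430) averaged 55.4% against 27.7%. ABLIM1, an actin-binding LIM protein, was called in all 12 fits leaving out 1 library. An intron reaching its upstream exons (chr10:114491879-114545004, minus strand) stood at 32.1, 36.4 and 41.7% in MYCN+ and 57.0, 63.8 and 72.1% in MYCN- cells, with a log2 odds difference of -1.63 ± 0.15 (limma, adjusted p = 0.00188). A first intron of the shorter transcripts (chr10:114491879-114526659) was called in the opposite direction, at 49.3% against 25.1%.

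LIMCH1, a LIM and calponin-homology domain gene, and UBA1, the ubiquitin-activating E1 enzyme, also showed an exchange between start sites, in UBA1 towards the upstream one. In UBA1 the PSI of intron 1 of the canonical transcript (chrX:47194025-47198802, plus strand) was 23.3, 28.7 and 37.7% with MYCN and 48.4, 52.3 and 56.9% without. The alternative first intron, from the upstream start site (chrX:47190951-47198802), was called in the other direction, at 52.0% against 29.0%. LIMCH1 intron 4 (chr4:41606005-41613465, plus strand) fell by 21.5 points (-21.5, limma adjusted p = 0.0252), and a first intron with the same acceptor rose from 38.8% to 59.5%. ANK3, which encodes the membrane adaptor ankyrin-G, had a first intron (chr10:60279640-60300318, minus strand) at 57.9, 61.4 and 67.4% in MYCN+ and 72.7, 77.5 and 81.4% in MYCN- cells (-15.4 points, limma adjusted p = 0.0307). An ANK3 first intron from a start site further upstream (chr10:60279640-60572464) rose from 5.36% to 15.5% (limma, adjusted p = 0.0396), beside 8.07 points with control siRNA. The falls in UBA1, LIMCH1 and ANK3 kept their sign with control siRNA, at -22.4, -21.8 and -12.2 points.

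TMEM132A had the deepest fall of the annotated introns named, in the first intron of its canonical transcript (chr11:60924734-60927203, plus strand). It stood at 30.3, 32.5 and 46.7% in MYCN+ and 47.1, 73.4 and 78.7% in MYCN- cells, groups that were separated by less than 1 point at their edges, and the difference was -34.0 points (limma, adjusted p = 0.0409). ARID5B, a DNA-binding chromatin regulator, lost 17.4 points in a first intron (-17.4, limma adjusted p = 0.0376). LHX8, a LIM-homeobox transcription factor, went against the control libraries. Its first intron (chr1:75134701-75136602, plus strand) fell by 31.3 points with MYCN in SNRPD3- cells (-31.3, limma adjusted p = 0.0293) and differed by 9.31 points in the opposite direction with control siRNA. The test of that difference gave an unadjusted p of 0.000235 in limma and did not pass adjustment (adjusted p = 0.627).

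Cassette exons were read as inclusion or skipping. The inclusion share of an exon was taken as the mean PSI of its 2 flanking introns, divided by the sum of that mean and the PSI of the skipping intron. MYCN status changed inclusion of 144 of 16570 exons (0.869%, limma, adjusted p below 0.05) in 134 genes, 129 (0.779%) less and 15 (0.0905%) more included in MYCN+ than in MYCN- cells. The direction of this split depended on the library scale. Over all exons fitted the median log2 odds difference was -0.19, 64.6% of exons lay lower with MYCN, and centring each library on its own median, a check chosen after the data were seen, left 88 exons, 46 less and 42 more included. Of the 144, 60 stayed called. Without replicate 3 of both MYCN+ groups 8 exons were called, 4 less and 4 more included, and only 4 of the 8 were among the 144. Leaving out any 1 library except MYCN- siRNA #1 replicate 3, which gave 151, lowered the count to between 18 and 77.

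**Figure D1:**
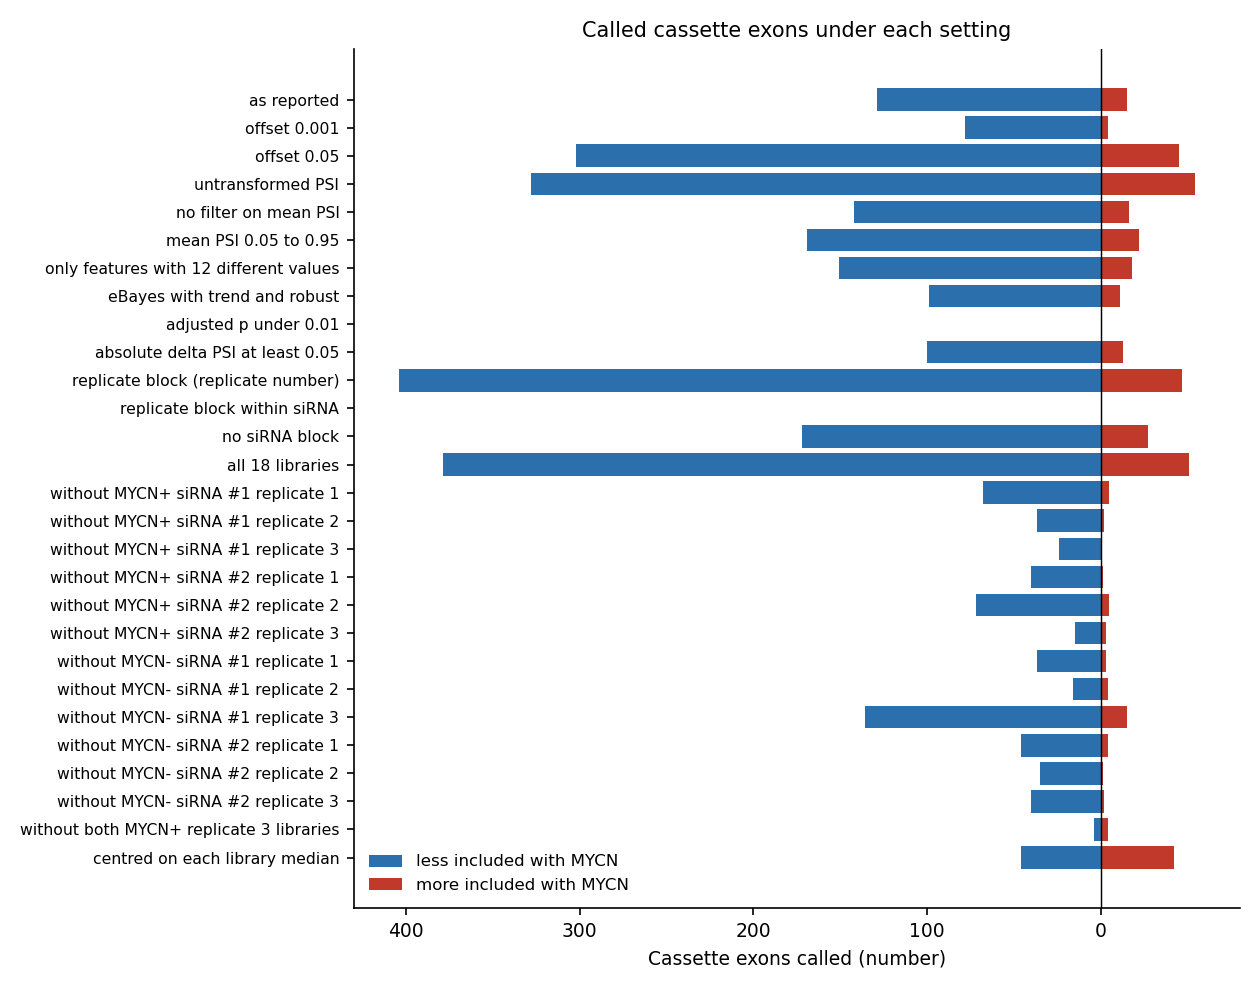
Number of cassette exons called less (left of zero) and more (right of zero) included with MYCN under each setting of the analysis. The 129 less and 15 more included exons became 46 and 42 when libraries were centred and 4 and 4 without replicate 3 of both MYCN+ groups.

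In the control siRNA libraries, 140 of the 144 exons (97.2%) had the same sign, against 63.5% of all exons, and 85 also had an unadjusted p below 0.05. The share of all exons that met both conditions was not counted. Of the 129 less included exons, 126 were also less included with control siRNA, as were 55.4% of all exons fitted. The control libraries alone called 42 exons (0.253%). The median ratio of the control difference to that in SNRPD3- cells was 0.679, which selection of these exons on the SNRPD3- difference lowers. MYCN+ and MYCN- libraries with an SNRPD3 siRNA did not overlap in 129 of the 144 exons, against 507 of all exons (3.06%). The call on these same libraries favours such a separation.

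**Figure D2:**
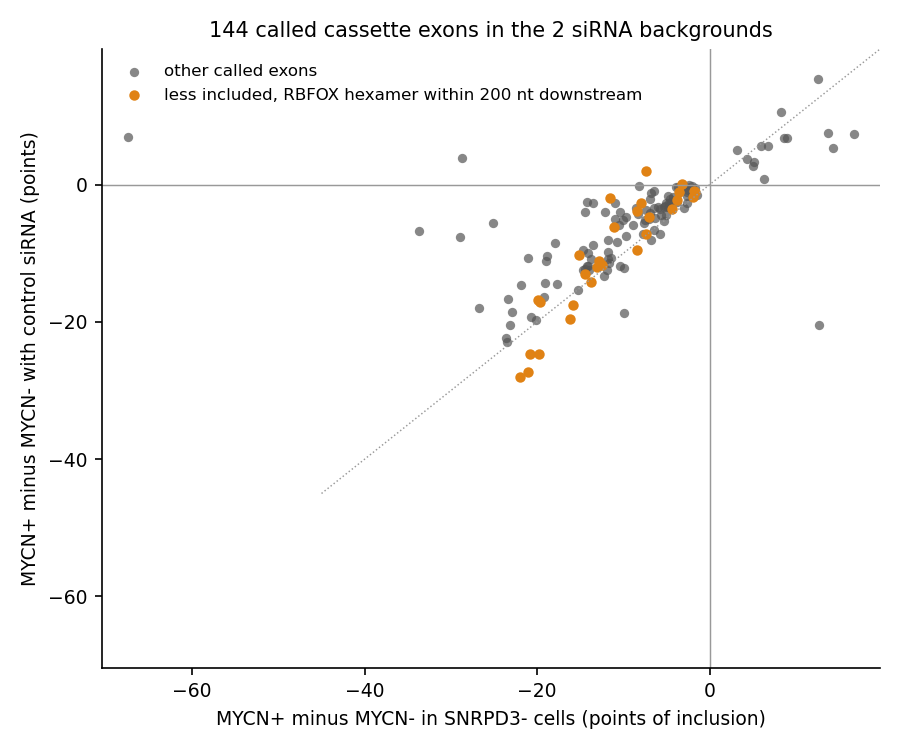
Difference in exon inclusion, MYCN+ minus MYCN-, in points, in SNRPD3- cells (horizontal axis) and in control siRNA cells (vertical axis) for the 144 called exons, each point an exon, with orange for a less included exon followed by the RBFOX-binding hexamer and a dotted line at equal differences. 140 points fall in the quadrants where both differences have the same sign, with a median ratio of 0.679. The exons were selected on the horizontal difference, which lowers this ratio.

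Among the exons called, short ones and those with a length that keeps the reading frame took a larger share than among all exons, a description with no test. Their median length was 96 nt, against 113 nt for all exons fitted, and 14 of 144 (9.72%) were at most 30 nt long, against 387 of 16570 (2.34%). A length that was a multiple of 3 was found for 89 (61.8%), against 43.2%. Among coding exons the share was 74 of 111 (66.7%), against 51.1%. At an inclusion of 20% to 80% in MYCN- cells the share was 31 of 44 (70.5%), against 45.4%. Among the 88 exons called after centring it was 60.2%, and among the 8 called without replicate 3 of both MYCN+ groups 50.0%. Median inclusion in MYCN- cells was 90.0% for the less included exons, 11.7% for the more included ones and 77.2% for all.

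Sequences are given for short coding exons of genes of adhesion, trafficking and cell division whose values follow, to show how little sequence each switch adds or removes. Capitals mark the exon and lower case the 20 nt of intron on each side, 5′ to 3′ on the transcribed strand, from the hg38 genome. The windows are chr6:167913383-167913443 (plus strand) for AFDN, chr11:85978050-85978113 (minus) for PICALM, chr6:85538818-85538884 (minus) for SNX14, chr17:50975843-50975921 (minus) for SPAG9 and chr15:69425262-69425343 (plus) for KIF23.
AFDN, 21 nt: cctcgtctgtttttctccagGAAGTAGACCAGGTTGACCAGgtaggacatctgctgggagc
PICALM, 24 nt: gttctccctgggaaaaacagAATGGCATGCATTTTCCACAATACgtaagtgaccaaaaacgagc
SNX14, 27 nt: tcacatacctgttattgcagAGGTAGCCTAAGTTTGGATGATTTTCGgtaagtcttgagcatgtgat
SPAG9, 39 nt: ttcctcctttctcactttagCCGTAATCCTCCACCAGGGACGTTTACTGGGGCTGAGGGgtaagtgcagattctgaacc
KIF23, 42 nt: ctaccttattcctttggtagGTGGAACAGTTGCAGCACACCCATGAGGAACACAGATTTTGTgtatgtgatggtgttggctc
Each exon is flanked by an ag acceptor and a gt donor.

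AFDN encodes afadin, which links nectin adhesion receptors to actin at adherens junctions. Inclusion of its 21 nt exon was 20.4, 28.1 and 35.3% in MYCN+ and 44.6, 50.4 and 58.6% in MYCN- cells. The groups were fully separated, and the difference of -23.1 points (limma, adjusted p = 0.0167) stood beside -20.4 points with control siRNA. The skipping intron (chr6:167911490-167914167) averaged 56.4% against 32.4% (limma, adjusted p = 0.00653).

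SPAG9 encodes the JIP4 scaffold of JNK signalling and vesicle transport. Inclusion of its 39 nt exon was 34.8, 48.6 and 59.3% in MYCN+ and 67.0, 71.5 and 74.5% in MYCN- cells, without overlap. The difference was -23.4 points (limma, adjusted p = 0.0203), and -16.6 points with control siRNA. PICALM, a clathrin assembly protein, included its 24 nt exon at 55.6, 64.7 and 68.8% in MYCN+ and 76.7, 78.1 and 81.5% in MYCN- cells (-14.6 points, limma adjusted p = 0.0261), and at -12.4 points with control siRNA. Another endosomal gene, the sorting nexin SNX14, included its 27 nt exon 16 at 22.9, 34.9 and 46.2% in MYCN+ and 48.3, 58.1 and 70.1% in MYCN- cells. The difference there was -23.5 points (limma, adjusted p = 0.0274) and -22.9 points with control siRNA.

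KIF23 encodes the kinesin of the centralspindlin complex, needed for cytokinesis. Inclusion of its 42 nt exon 8 was 14.3, 22.4 and 26.5% in MYCN+ and 37.9, 42.0 and 46.9% in MYCN- cells. The highest MYCN+ library stayed below every MYCN- library (-19.9 points, limma adjusted p = 0.0206), and the difference with control siRNA was -16.7 points. TERF1, a telomere-binding shelterin protein, showed a 60 nt exon at 19.4, 21.4 and 26.0% in MYCN+ and 40.2, 42.4 and 45.4% in MYCN- cells (-20.7 points, limma adjusted p = 0.0107). FNIP2, a folliculin-interacting protein, lost 23.0 points of inclusion of a 90 nt exon.

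RPS24 encodes a protein of the small ribosomal subunit, and its 22 nt exon 5 (chr10:78040204-78040225, plus strand) is not a multiple of 3 and lies near the end of the transcript. Inclusion was 18.8, 24.05 and 26.0% in MYCN+ and 38.2, 42.5 and 48.7% in MYCN- cells. This exon did not overlap between groups, fell by 20.2 points (-20.2, limma adjusted p = 0.0167), and differed by -19.8 points with control siRNA. It and the 54 nt exon of EPB41L2 (chr6:130870328-130870381, minus strand) were the only 2 of 24 named and called exons that passed in all 12 fits leaving out 1 library. EPB41L2 belongs to the protein 4.1 family, and inclusion was 3.20, 3.93 and 4.84% against 6.93, 10.2 and 10.8% (-5.72 points, limma adjusted p = 0.0167).

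MYL6 encodes the essential light chain of myosin, and its 45 nt exon 6 (chr12:56160626-56160670, plus strand) distinguishes known light chain isoforms. Inclusion was 26.3, 28.8 and 30.7% in MYCN+ and 35.4, 43.3 and 48.2% in MYCN- cells. The groups did not overlap, with a difference of -14.4 points (limma, adjusted p = 0.0341) and -13.1 points with control siRNA. FAT1, an atypical cadherin, included a 36 nt exon (chr4:186590368-186590403, minus strand) at 9.26, 12.2 and 18.01% against 25.3, 27.9 and 33.1% (-15.8 points, limma adjusted p = 0.0107).

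The 6 largest falls under the naming rule lay in exons of TMEM259, PIGQ, SDR39U1, ASIC3, KIAA1217 and SNX14, between -33.7 and -23.5 points. PIGQ, of the first step of GPI anchor synthesis, had its 62 nt exon 10 at 28.6, 44.3 and 64.8% in MYCN+ and 71.0, 73.1 and 78.5% in MYCN- cells. The MYCN+ libraries were spread widely but stayed below all MYCN- libraries, which the naming rule required. With control siRNA the differences were -7.60 points in PIGQ, -6.69 in TMEM259, -5.63 in ASIC3, an acid-sensing channel, -18.0 in SDR39U1 and -22.3 in KIAA1217. For ASIC3 the test of the MYCN effect between SNRPD3- and control cells gave an unadjusted p of 0.0136 in limma and did not pass adjustment.

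Exons included more with MYCN were fewer. INPP5K, an inositol polyphosphate 5-phosphatase, included a 17 nt exon (chr17:1515569-1515585, minus strand) at 12.8, 22.4 and 32.0% in MYCN+ and 1.80, 5.86 and 8.69% in MYCN- cells (16.7 points, limma adjusted p = 0.0311). OSBPL6, an oxysterol-binding protein, included a 75 nt exon at 9.47, 15.1 and 29.4% against 0.109, 1.19 and 8.16% (14.3 points, limma adjusted p = 0.0350). Every MYCN+ library exceeded every MYCN- library in both exons, a condition of the naming rule.

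CENPE, the kinesin that captures microtubules at kinetochores, included its 75 nt exon 17 at 35.3, 40.7 and 42.4% against 19.7, 26.4 and 31.1% (13.7 points, limma adjusted p = 0.0416). CC2D2A, of the ciliary transition zone, DIS3, a nuclease of the RNA exosome, and UROS, of heme synthesis, rose by 12.6, 9.03 and 8.65 points. TNC, the matrix glycoprotein tenascin-C, was the 1 exon of the adhesion list that rose, in its 273 nt exon 17, by 6.76 points (limma, adjusted p = 0.0471). With control siRNA these 6 exons of the naming rule (TNC is not among them) kept their sign, as did the 6 with the largest falls.

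The hexamer TGCATG, which RBFOX splicing factors bind, was counted in the intron after each exon, with no test of the counts. It was searched on the transcribed strand in the 200 nt after each exon. It was present for 29 of 129 less included exons (22.5%), 1 of 15 more included (6.67%) and 1132 of 16570 exons fitted (6.83%). Exons less included at an unadjusted p below 0.05 but not called had it in 174 of 2330 (7.47%), a share close to that of all exons. In the 200 nt before the exon it was present for 10 of 129 (7.75%), against 6.10%. Within coding exons of at most 100 nt and a multiple of 3, it followed 14 of 46 exons called less included (30.4%) and 243 of 2343 fitted exons (10.4%). Among the 88 exons called after centring, it followed 11 of 46 less included (23.9%) and 3 of 42 more included ones (7.14%).

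The same search was made with ACTAAC, which QKI binds, and that hexamer followed 8 of 129 less included exons (6.20%), against 2.48%. Of the 29 exons followed by TGCATG, 27 (93.1%) were also less included with MYCN in the control siRNA libraries, against 126 of all 129 less included exons. The 29 hold overlapping exons of ANKRD10 and of HYCC1. The hexamer alone did not mark a shift: over all exons fitted, the median difference was -0.795 points with it and -0.730 points without it. These shares were examined after the values were seen, and the binding of a factor was not measured.

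Intron sequence that begins at the donor is shown for short coding exons to place the hexamer, which is in capitals. They are the 9 less included coding exons of at most 60 nt with the hexamer within 120 nt of the donor, a rule set after the values were seen. They read 5′ to 3′ on the transcribed strand of hg38, at chr4:186590344-186590367 (minus) for FAT1, chr7:148759355-148759391 (plus) for CUL1, chr15:63328059-63328097 (minus) for CA12, chr1:162592783-162592822 (plus) for UAP1, chr12:39330192-39330241 (minus) for KIF21A, chr1:46000980-46001037 (plus) for MAST2, chr2:227352574-227352656 (plus) for MFF, chr15:69425324-69425413 (plus) for KIF23 and chr7:91992212-91992306 (plus) for AKAP9.
FAT1: gtgacttaTGCATGccagttattc
CUL1: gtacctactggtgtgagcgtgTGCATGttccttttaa
CA12: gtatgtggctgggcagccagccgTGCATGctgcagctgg
UAP1: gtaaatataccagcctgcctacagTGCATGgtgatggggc
KIF21A: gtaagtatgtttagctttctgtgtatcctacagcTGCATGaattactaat
MAST2: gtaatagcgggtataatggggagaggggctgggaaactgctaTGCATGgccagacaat
MFF: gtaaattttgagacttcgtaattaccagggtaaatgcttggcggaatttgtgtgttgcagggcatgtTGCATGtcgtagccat
KIF23: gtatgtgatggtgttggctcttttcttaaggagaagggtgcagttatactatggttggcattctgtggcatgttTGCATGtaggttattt
AKAP9: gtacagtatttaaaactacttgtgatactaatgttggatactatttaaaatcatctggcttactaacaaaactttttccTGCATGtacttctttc
The hexamer starts 9 nt into the intron in FAT1 and 80 nt into it in AKAP9. The differences in inclusion of the exons that precede them were -21.1 points in the kinase MAST2, -19.9 in KIF23, -19.7 in the kinesin KIF21A, -16.1 in CA12, a carbonic anhydrase, -15.8 in FAT1, -13.0 in UAP1, of UDP-N-acetylglucosamine synthesis, and -12.8 in the mitochondrial fission factor MFF. They were -7.36 points in the anchoring protein AKAP9 and -1.77 points in CUL1, the scaffold of SCF ubiquitin ligases. With control siRNA 8 of the 9 differences had the same sign, and AKAP9 differed by 2.04 points in the other direction.

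Several of the largest changes were not assigned to an annotated first intron or an annotated cassette exon. SLIT2 encodes a secreted guidance ligand of ROBO receptors, and its intron 5 (chr4:20467824-20480715, plus strand) fell from 99.9% in the lowest, median and highest MYCN- library to 75.3, 83.2 and 93.2% in MYCN+ cells (-15.7 points, limma adjusted p = 0.000463). DKK3, of the Dickkopf family of WNT modulators, showed 48.3, 55.1 and 71.2% against 72.8, 80.3 and 83.9% for intron 2 (chr11:11998780-12002299, minus strand, limma adjusted p = 0.00772). Both genes moved the same way with control siRNA, by -21.2 and -13.4 points. FARS2, the mitochondrial phenylalanyl-tRNA synthetase, used intron 4 (chr6:5431173-5545179, plus strand) at 71.1, 80.1 and 88.5% against 49.3, 54.5 and 60.6%, a rise of 25.2 points (limma, adjusted p = 0.0179). An unannotated FARS2 intron to the same acceptor (chr6:5498557-5545179) was called in the other direction, at 8.25% against 28.2%. In SLIT2, unannotated introns to the acceptor of intron 5 averaged 6.86% (from 20480579) and 6.45% (from 20480613) in MYCN+ cells and were not called. Whether such introns begin at unannotated first exons was not tested.

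SPATA13, AP5Z1, of the AP-5 adaptor complex, and PCBP3, a poly(rC)-binding protein, complete the named introns together with the zinc finger gene ZNF436. SPATA13 intron 4 rose by 31.5 points (limma, adjusted p = 0.0382), and PCBP3 and ZNF436 fell by 17.9 and 16.3 points. An annotated SPATA13 first intron to the same acceptor (chr13:24270913-24284134) averaged 17.2% against 48.5% and was not called (limma, adjusted p = 0.119). AP5Z1 intron 9 (chr7:4785685-4786249, plus strand) fell by 27.4 points with MYCN in SNRPD3- cells (-27.4, limma adjusted p = 0.0462) and differed by 2.33 points in the other direction with control siRNA. It and LHX8 were the 2 of 24 named introns whose sign differed between the settings. Each was called at its own threshold only in SNRPD3- cells, and neither passed the adjusted test of the difference.

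Of the gene lists examined, genes with alternatively spliced adhesion and cytoskeleton products had the highest share with a call, 10 of 65 genes (15.4%) against 1.74% of all genes. They were EPB41, ANK3, PICALM, MYL6, SPAG9, EPB41L1, MAP4, EPB41L2, TPM2 and COL5A1. Of 978 introns in this list 18 (1.84%) were called, 8 higher and 10 lower, against 0.220% of all introns. Of 153 exons 6 were called, 1 more and 5 less included, against 144 of all 16570 exons (0.869%). The lists were chosen with earlier results of these data known. Its median difference was 0.0258 points, against 0.00692 over all introns. Genes of this list have many listed introns, and a gene with more introns has more chances of a call.

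Lists of the splicing machinery had at most 1 gene with a call, beside 1.74% of all genes. A called intron was present in 1 of 28 Sm and snRNP genes (3.57%; LSM5, -2.70 points), 1 of 20 methylosome and SMN genes (5%; PRMT2, 11.1 points), 1 of 28 hnRNP genes (3.57%; PCBP3) and 1 of 32 U2 and U2AF genes (3.12%; PRPF38A, 4.24 points). In 19 SR protein, 21 lineage splicing regulator and 14 splicing kinase genes, limma called 0 introns, while 29, 24 and 16 introns (17.3%, 10.3% and 10.4%) had an unadjusted p below 0.05, against 10.1% of all introns. The lineage list names 32 genes, RBFOX, QKI and PTBP genes among them, and only the 21 had fitted introns. Cassette exons of GEMIN8, an SMN complex subunit, and PRMT2, an arginine methyltransferase, were less included by 14.5 and 7.75 points (-14.5 and -7.75). They were 2 of the 27 exons tested in the methylosome and SMN list, against 0.869% of all exons.

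Other lists, beside the same 1.74% of all genes, gave 1 of 31 genes of glycolysis and fuel use (3.23%; PDK2), 1 of 88 of the cell cycle (1.14%; KIF23), 1 of 39 of apoptosis (2.56%), 1 of 27 snoRNA host genes (3.70%; SNHG4, 3.05 points) and 2 of 52 ribosomal protein genes (3.85%), RPS24 and RPLP2 (1.13 points). The apoptosis gene was CFLAR, which encodes the caspase-8 inhibitor c-FLIP. An intron ending at an alternative last exon (chr2:201149836-201154136, plus strand) stood at 0.0406, 0.0475 and 0.135% in MYCN+ and 2.39, 4.78 and 6.86% in MYCN- cells (-4.54 points, limma adjusted p = 0.00531), and differed by 3.46 points in the other direction with control siRNA. The MYC and MAX network, nonsense-mediated decay, DNA repair and neuroblastoma-linked lists had 0 of 21, 0 of 19, 0 of 79 and 0 of 23 genes with an intron called by limma, and 28, 33, 121 and 23 introns (8.31%, 12%, 8.90% and 6.10%) at an unadjusted p below 0.05, against 10.1% of all introns. At the exon level, RAD51C, a recombination gene, and CAMTA1, a transcriptional activator, each had a called exon at -1.46 and -2.78 points. These were 1 of 238 exons of the DNA repair list and 1 of 39 of the neuroblastoma-linked list, against 0.869% of all exons.

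PKM, BIRC5 and CDK10 were followed whatever their result. PKM makes the M1 or M2 form of pyruvate kinase from mutually exclusive exons, and the introns of that choice differed by at most 0.0770 points (limma, adjusted p = 0.969). In BIRC5, which encodes the apoptosis inhibitor survivin, the lowest adjusted p was 0.443 for an intron and 0.375 for an exon (limma). The 73 nt exon 2 of the cyclin-dependent kinase gene CDK10 was included at 60.4, 79.2 and 84.0% in MYCN+ and 82.5, 86.2 and 88.4% in MYCN- cells, groups that overlapped (-10.7 points, limma adjusted p = 0.153).

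The siRNAs can be read as separate experiments. Taken alone, siRNA #1 called 617 introns (0.404%), of which 374 (60.6%) had the same sign with siRNA #2, and 52 of these also had an unadjusted p below 0.05 there. The reverse gave 663 introns (0.435%), 403 (60.8%) with the same sign and 47 with an unadjusted p below 0.05. Over all introns the same sign was seen in 57.6%, so by sign alone lists from 6 libraries carried over little more often than introns in general. The share of all introns with the same sign and an unadjusted p below 0.05 with the other siRNA was not counted. The MYCN effect differed between siRNAs for 64 introns (0.0420%, limma interaction), with 5968 at an unadjusted p below 0.05.

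Averaged over 18375 annotated cassette exons, skipping was more frequent with MYCN. The share of skipping was 40.5, 41.1 and 43.4% (lowest, median and highest) in MYCN+ and 40.0, 40.4 and 40.7% in MYCN- libraries, ranges that overlapped at their edges. The means of 41.6% ± 1.06 (SD, n = 6) and 40.4% ± 0.266 differed by 1.2 points (exact two-sided permutation test within siRNA, p = 0.005, the smallest that 400 arrangements can give). Replicate 3 of MYCN+ cells held the highest value with each siRNA, 43.4% and 42.3%, and without both the difference was 0.570 points (exact permutation p = 0.010). With control siRNA it was 0.455 points (exact permutation p = 0.2, where 0.1 is the smallest possible), and the effects did not differ detectably between SNRPD3- and control cells (0.745 points, exact permutation p = 0.274).

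**Figure D3:**
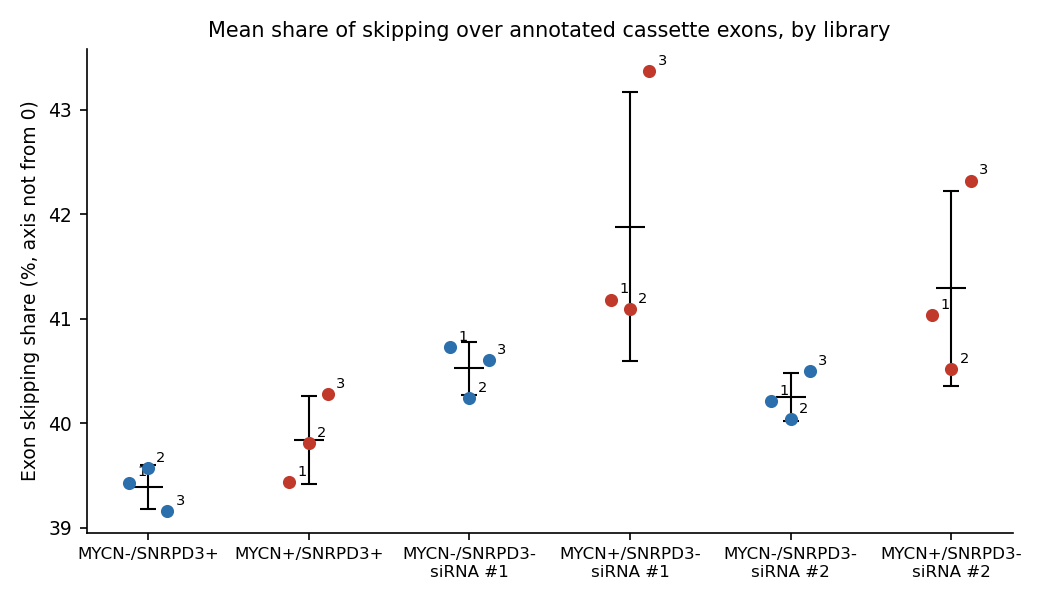
Mean share of skipping over 18375 annotated cassette exons, in percent, in each of the 18 libraries by MYCN status and siRNA, with the mean and SD of the 3 replicates in black. Replicate 3 of MYCN+ cells is the highest point with each SNRPD3 siRNA, at 43.4 and 42.3%.

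Unannotated introns held 11.5% ± 0.113 of summed PSI in MYCN+ and 11.2% ± 0.111 in MYCN- libraries (SD, n = 6 each), a difference of 0.315 points (exact two-sided permutation test within siRNA, p = 0.005). The same difference was 0.174 points with control siRNA (exact permutation p = 0.2). Diversity of splice choice within clusters, as Shannon entropy, differed by 0.00211 bits (exact permutation p = 0.78) and changed sign when single libraries were left out.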

How the data were processed

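RNA of 18 samples was made into TruSeq stranded mRNA libraries by the study. Per the study's methods and the submitters' processing notes, reads were aligned with STAR 2.5.0a to hg38 and handled with SAMtools 1.3.1, and leafcutter grouped introns that share a splice site into clusters. The authors deposited PSI as a fraction, the share of a cluster's reads that support an intron in a library, without the read counts, and PSI is given here in percent. PSI is a share, so it does not follow gene expression, a rise in 1 intron lowers the others of its cluster, and clusters with few reads have a coarse PSI. A second deposited table, with false discovery rates and PSI differences of the authors' own comparisons, was not used.

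Groups came from the sample labels. PSI was transformed to log2((PSI + 0.01)/(1 - PSI + 0.01)), with PSI as a fraction, and introns with a mean of 0.01 to 0.99 were fitted with limma 3.58.1 in R 4.3.3, with MYCN status and siRNA number as terms and Benjamini-Hochberg adjustment over all introns or exons fitted. Calls have an adjusted p below 0.05. Introns and exons were placed with GENCODE release 44, whereas the study's methods name release 28. Cassette exons were annotated triples within 1 cluster. Shares per library were compared with exact two-sided permutation tests within siRNA. Sequences were read from hg38 with pysam 0.24.0. Scripts also used Python 3.11.15, numpy 2.4.6, scipy 1.17.1, pandas 2.3.3 and matplotlib 3.10.9, and fits were tested on simulated data.

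The members, gene lists and rules were chosen with earlier results of these data known. Named introns are the 12 largest rises and 12 largest falls among called, annotated introns with 12 different values, 1 sign with both siRNAs and no overlap between MYCN+ and MYCN- libraries. The 6 largest exon rises and falls under the same conditions, called introns and exons of 17 gene lists, and PKM, PDK2, BIRC5 and CDK10 were added. AFDN, FNIP2, TERF1, FAT1 and ABLIM1 exons belong to named introns. Alternatives covered the offset, scale, filters, repeated values, moderation, blocks, thresholds, the libraries fitted and each library left out. Of these, 1 intron and 1 exon are not reported here, and they stay in the counts.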

Additional observations from a re-analysis of the deposited data

Results flagged for a closer look

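The MYCN effect differed between SNRPD3- and SNRPD3+ cells in a direct limma test of that difference for 11 introns, 7 of them with 12 different values in the SNRPD3- libraries, and 2 of the 11 were also called in SNRPD3- cells. Introns of STX18-AS1, SUGCT, CXorf58, BIRC3, ENSG00000251361 and an unplaced contig, among the 11, moved almost only with 1 siRNA. In STX18-AS1 the MYCN effect was -0.00551 points with siRNA #1 and -10.4 with siRNA #2, and in CXorf58 22.2 and 0.0739. All of these but the contig introns also passed the test between siRNAs. IQCD and LINC01524, which moved in 1 direction with both siRNAs, are described here, chosen after their values were seen. The IQCD intron (chr12:113195890-113207437) stood at 0.0623, 0.0873 and 0.101% (lowest, median and highest) in MYCN+/SNRPD3- and 1.73, 3.43 and 6.68% in MYCN-/SNRPD3- cells, and the order was the reverse with control siRNA, at 5.10, 5.63 and 16.1% in MYCN+ and 0.0463, 0.0737 and 2.64% in MYCN- cells. The MYCN effects were -3.54 and 8.01 points, a difference of -11.6 points (limma, adjusted p = 0.0467).

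LINC01524, a long non-coding RNA gene, had an intron (chr20:52539062-52550030) at 37.3, 49.5 and 59.5% in MYCN+/SNRPD3- and 13.9, 26.4 and 45.3% in MYCN-/SNRPD3- cells, groups that overlapped. With control siRNA it stood at 0.532, 0.715 and 1.49% in MYCN+ and 25.3, 37.7 and 49.3% in MYCN- cells. The effects of 22.7 and -36.5 points differed by 59.2 points (limma, adjusted p = 0.0115).

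A direct limma test of the MYCN effect with siRNA #1 against that with siRNA #2 passed for 64 introns. Extreme single libraries within a group were not tested, because each group of the design holds 3 libraries.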

How the results depend on the processing

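The named introns and exons that were called kept their direction under every alternative run, which their selection on the same libraries favours, whereas the number called moved widely, and the cause was not tested. The 335 introns became 85 at an adjusted p under 0.01, 205 with a PSI difference of at least 5 points, 891 in a fit of all 18 libraries and 183 to 340 with 1 library left out. The 247 genes became 61, 140 and 644 under the first 3 of these, 376 when introns with a repeated value were left out, 162 with 1 p per cluster and 138 to 259 with 1 library left out. The 144 exons became 82 and 347 with an offset of 0.001 and 0.05, 382 on untransformed PSI, 430 in the fit of 18 libraries, 88 after centring, 8 without replicate 3 of both MYCN+ groups, 18 to 151 with 1 library left out and 0 at an adjusted p under 0.01 (limma, with 3050 at an unadjusted p under 0.05). The 20 genes called over all gene lists became 6 to 17 with 1 library left out, 4 at an adjusted p under 0.01 and 47 in the fit of 18 libraries. Of 34 named introns 13, and of 24 named exons 2, were called in all 12 fits with 1 library left out, and adjusted p reached 0.115 and 0.110 in the others.

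Pooled over the 12 libraries, the mean correlation of deviations was 0.0073 between libraries of the same number and -0.0037 otherwise. Within an arm, same-numbered libraries of the 2 siRNAs ranged from 0.00059 (MYCN+ replicate 1) to 0.0467 (MYCN- replicate 3), with 0.0318 for MYCN+ replicate 3. Between arms, replicate 3 stood at -0.0320 with siRNA #1 and 0.0142 with siRNA #2. Same-numbered control and SNRPD3- libraries of an arm ranged from 0.00254 (MYCN+ replicate 1, siRNA #2) to 0.0644 (MYCN- replicate 3, siRNA #1). A control and an SNRPD3- library of different number and arm reached 0.0635. Whether the 6 libraries of an arm are independent of each other, or of the control libraries, was not tested. The replicate number as a block gave 379 introns, 285 genes and 451 exons. A block for same-numbered replicates within each siRNA gave 29 introns, 20 genes, 0 of them in the gene lists, and 0 exons (limma, 14769 introns and 3021 exons at an unadjusted p under 0.05), with 2 named introns and 0 named exons still called, and the skipping share kept its 1.2 points (exact permutation p = 0.0312). With the replicate block, siRNA #1 and siRNA #2 alone gave 0 introns each (limma, 7731 and 8948 at an unadjusted p under 0.05), the test between siRNAs 31, and the test between SNRPD3- and SNRPD3+ cells 6.

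With siRNA #1 alone the 617 introns became 172 with an offset of 0.05, 303 with trend and robust moderation, 77 with the spread of 18 libraries and 642 to 1235 with 1 library left out. The 663 of siRNA #2 became 173, 306, 73 and 826 to 1049. For the difference between siRNAs, 64 became 116 and 25 with an offset of 0.001 and 0.05, 2 on untransformed PSI, 102 without the filter, 16 with the narrower filter, 41 with all values different, 42 with trend and robust moderation, 35 at an adjusted p under 0.01 and 109 to 143 with 1 library left out. For the difference between SNRPD3- and SNRPD3+ cells, 11 became 18, 1, 1, 38, 3 and 7 under the first 6 of these, 3 at an adjusted p under 0.01 and 8 to 32 with 1 library left out.

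Leaving out 1 library gave 0.843 to 1.41 points for the skipping share, 0.270 to 0.349 points for unannotated introns and -0.00261 to 0.00597 bits for diversity, which was -0.00633 bits without replicate 3 of both MYCN+ groups. Among single introns and exons, sign changed in features that were not called: with 1 library left out, the PKM introns of the M1 or M2 choice ranged from -0.0466 to 0.253 and from -0.253 to 0.0466 in log2 odds, passing through -0.0277 and 0.0277 without MYCN- siRNA #1 replicate 2 and -0.00103 and 0.00103 without MYCN+ siRNA #1 replicate 1. A BIRC5 intron ranged from -0.0563 to 0.205 in log2 odds and was at -0.144 without replicate 3 of both MYCN+ groups, and a BIRC5 exon ranged from -0.212 to 0.093 in log2 odds and was at 0.203 there and at 0.135 after centring. Depth is unknown, so no interval for counting error can be given, and small PSI differences in clusters with few reads cannot be separated from counting error.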

Other observations

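The largest called exon changes included features that the naming rule left out, chosen here after their values were seen. An exon of LIX1L-AS1, an antisense RNA gene, was at 22.2% ± 23.9 in MYCN+/SNRPD3- and 89.6% ± 19.6 in MYCN-/SNRPD3- cells (SD, n = 6 each), groups that overlapped, and the difference of -67.4 points stood beside 6.98 points with control siRNA. An exon of the RNA-binding protein gene RBMS3 differed by -28.7 points in SNRPD3- cells and 3.96 points with control siRNA. An exon of SATB1-AS1 differed by 12.7 and -20.5 points.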
